A study of Mus musculus with 69 samples.

Results

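Of the 55367 gene symbols of the count table, 7 were taken by symbol for their place in the caspase-activating machinery: Apaf1 and Casp9 of the apoptosome, Pidd1 and Casp2 of the PIDDosome, Cycs and Diablo, which mitochondria release, and Xiap, which holds caspases in check. They were read in all 69 libraries. Among them are 2 initiator caspases and no executioner caspase, and Casp6, which is one, is given further on from a list of 21 other genes of the pathway.

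In the mitochondrial route to apoptosis, cytochrome c leaves the intermembrane space and binds APAF1, which assembles into a wheel-shaped platform, the apoptosome. Procaspase 9 is recruited there and activated, and it goes on to activate the executioner caspases. XIAP binds and inhibits these caspases, and SMAC, the product of Diablo, displaces it. The PIDDosome is a separate platform, in which PIDD1 and the adaptor CRADD activate caspase 2. Apaf1 and Pidd1 are both known targets of p53, a transcription factor that responds to DNA damage and other stress.

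The libraries were polyA RNA of E14tg2A mouse embryonic stem (mES) cells. WT–mCherry cells carried an H2B–mCherry transgene and WT–emiRFP cells an H2B–emiRFP670 transgene. p53KO–emiRFP cells were 1 daughter clone of the WT–emiRFP clone with a homozygous frameshift in Trp53, selected with Nutlin-3a, so genotype and clone cannot be told apart. Mosaic gastruloids were aggregated from 150 WT–mCherry and 150 WT–emiRFP cells (WT + WT) or from 150 WT–mCherry and 25 p53KO–emiRFP cells (WT + p53KO), and gastruloids kept beyond 48 h received a CHIR99021 pulse from 48 to 72 h. Each population was sorted by its fluorescence at 48, 72, 96, 120 and 144 h, and the 3 clones were also taken as mES cells at 0 h, with 3 replicates for each of the 23 conditions.

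Libraries held 26722541 to 72981570 counts, with a median of 53098728. Trp53 itself, the mutated gene, lay between 1517 and 2607 normalized counts in the 18 p53KO–emiRFP libraries and between 13999 and 27702 in the 51 WT libraries, so no label was contradicted. Ccng1 and Mdm2, both targets of p53, were likewise lower in every p53KO–emiRFP library than in every WT library. Cdkn1a, which encodes the cell cycle inhibitor p21, was lower at each time point. The WT–emiRFP mES library of replicate 1 lay farthest from its own group. Some 0 h results of the members are also given without it, and all other 0 h results include it. In these bulk samples fewer cells of a type and less RNA per cell cannot be told apart.

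All 7 genes lie on GRCm38: Apaf1 at chr10:90989311-91082770 (minus strand), Casp9 at chr4:141793612-141815976 (plus), Casp2 at chr6:42264985-42282508 (plus), Pidd1 at chr7:141438113-141444025 (minus), Cycs at chr6:50562563-50566538 (minus), Diablo at chr5:123509765-123524176 (minus) and Xiap at chrX:42059679-42109656 (plus). Counting was over exons. The exons of Apaf1, Casp2, Pidd1, Cycs and Xiap overlapped no exon of another gene. In Casp9, 1.81% of exon bases lay opposite exons of Cela2a and Ctrc. Diablo is different, because 40.9% of its exon bases were shared with other genes. The opposite-strand gene B3gnt4 shared 21.5% of them and the same-strand gene Gm49027 19.3%. The transcript Diablo-203 had 75.7% of its 1576 bases within exons of Gm49027. These overlaps are those of Gencode release 21, while the authors counted with another release of that annotation and the strand setting is not given in the sources used here. Diablo had 113 to 350 raw counts per library. The part of the overlap in that number was not tested, and its level is uncertain.

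Apaf1 and Pidd1 were the members with lower levels in p53KO–emiRFP cells throughout, and the 250 bases before their RefSeq starts (GRCm38.p6) are shown for that reason, in the direction of transcription. Capitals mark the GC box, GGGCGG or CCGCCC on the other strand.
Apaf1, chr10:91082744-91082993, minus strand: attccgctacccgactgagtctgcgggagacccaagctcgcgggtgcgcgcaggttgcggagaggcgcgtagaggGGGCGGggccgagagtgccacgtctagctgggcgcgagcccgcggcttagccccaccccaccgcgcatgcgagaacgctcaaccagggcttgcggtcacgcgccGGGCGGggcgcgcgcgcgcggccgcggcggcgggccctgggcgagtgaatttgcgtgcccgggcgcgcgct
Pidd1, chr7:141444026-141444275, minus strand: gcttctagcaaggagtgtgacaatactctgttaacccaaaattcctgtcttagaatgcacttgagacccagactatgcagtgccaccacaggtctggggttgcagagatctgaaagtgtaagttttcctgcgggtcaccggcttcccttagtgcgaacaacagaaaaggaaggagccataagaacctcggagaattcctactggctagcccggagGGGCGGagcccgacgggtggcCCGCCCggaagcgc
Over the windows of 300 bases, from 250 before to 50 after the start, Apaf1 had 74.7% G and C with 46 CG dinucleotides, and Pidd1 had 57.7% with 17. The median of all 32817 windows in the table was 52.7% with 7. A GC box on either strand was found in at least 1 window of each of the 7 genes, 3 times for Apaf1, 4 times for Casp9 and 2 times for Pidd1, and in 35.6% of all windows. The 10-base half-site of p53, searched on both strands without mismatches, was in none of the members' windows and in 8.36% of all windows. The search covered these letters in these windows alone.

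Per kilobase of exon, Cycs stood highest with 2030 normalized counts as the mean of the 23 group means, and Pidd1 came next with 707. Casp2 at 459, Xiap at 444, Apaf1 at 404 and Casp9 at 399 were close to each other, and Diablo had 33.4. Normalized counts are raw counts divided by a library's size factor, the median of ratios over all 69 libraries. Apaf1 varied most among the 23 conditions, with its highest group mean 5.27 times its lowest, followed by Pidd1 at 4.13. Casp2 spanned 2.65 times, Casp9 2.61 and Cycs 2.17. Xiap, at 1.57, and Diablo, at 1.56, varied least. When the 23 conditions were ranked by mean, the replicates of neighbours in that order separated for 5 of 22 pairs in Apaf1, 6 in Casp9, 3 each in Casp2, Pidd1 and Cycs, and none in Diablo or Xiap, so most steps of the order were within the spread of replicates.

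**Figure D1:**
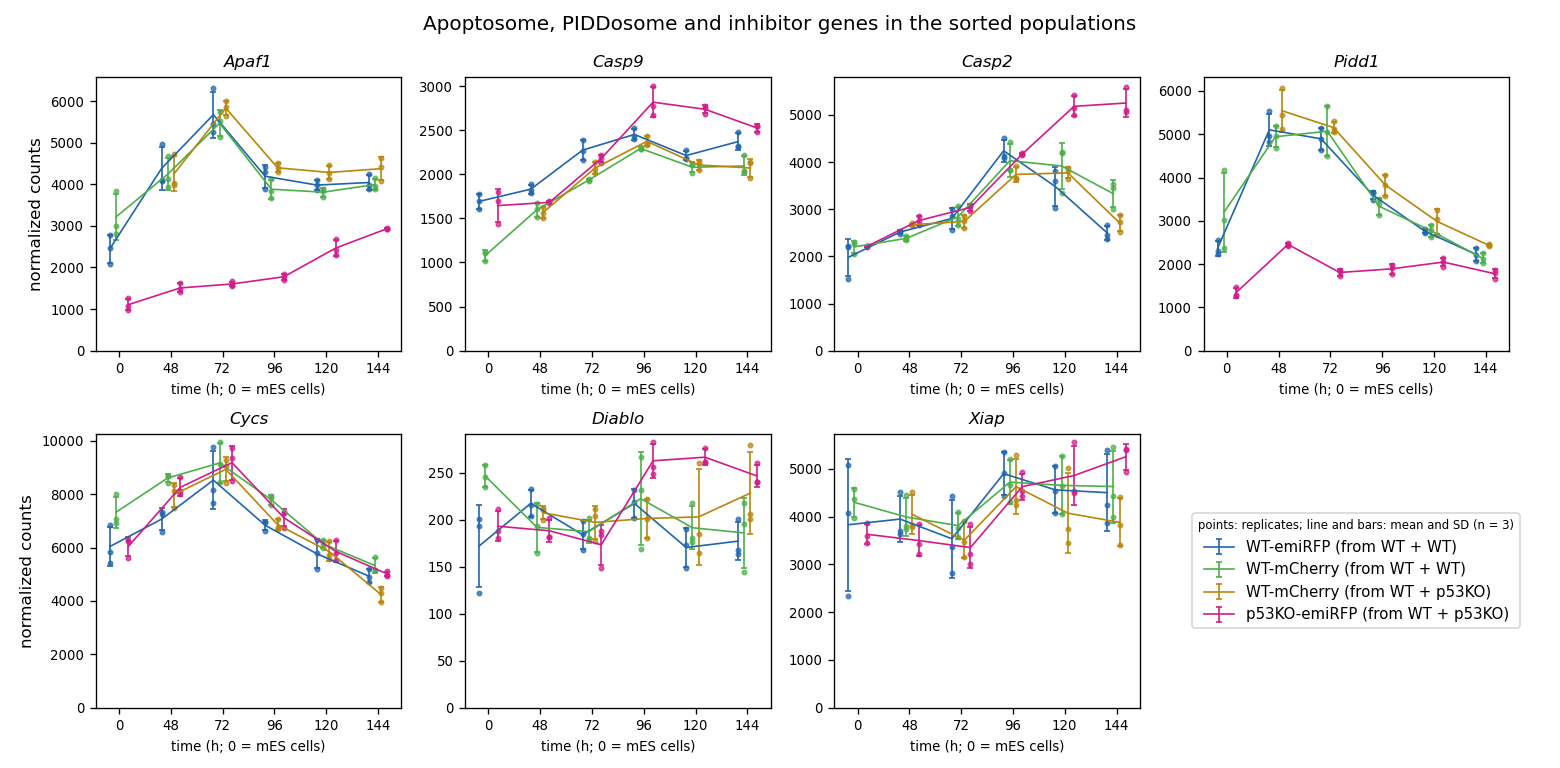
Normalized counts (vertical axes, from 0) of the 7 genes against time in h, with a point for each of the 69 libraries and lines with bars for the mean and SD of 3 replicates; colours mark the 4 sorted populations and 0 h is mES cells. Apaf1 and Pidd1 of p53KO–emiRFP cells lie below every WT library of the same time point, and Casp2 of p53KO–emiRFP cells lies above them at 120 and 144 h.

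To ask how cells without p53 differ, p53KO–emiRFP cells were compared with WT–emiRFP cells at each time point. From 48 h on the former came from WT + p53KO and the latter from WT + WT gastruloids, so genotype cannot be told apart from the type of gastruloid, the neighbours and the number of cells seeded. These do not enter the mES comparison. Apaf1 and Pidd1 were lower at all 6 time points, by the largest factor at 72 h, while Casp2, Casp9 and Diablo were higher late. In mES cells 2 of the 7 members passed an edgeR adjusted p of 0.05, both lower, against 6.14% of all genes tested (1.97% higher, 4.16% lower). At 48 h it was 4, of which 2 were higher, against 22.1% (10.3% higher, 11.7% lower). The 72 h count was 2, both lower, against 29.1% (13.4% and 15.7%), and that of 96 h was 3, of which 1 was higher, against 23.3% (9.45% and 13.8%). At 120 h 5 passed, 3 of them higher, against 51.0% (27.3% and 23.7%), and at 144 h 4, of which 2 were higher, against 65.4% (33.2% and 32.2%). At 120 and 144 h most of the genes tested differed, so the late counts of members were near that background. The median log2 fold change of the members lay between -0.17 at 48 h and 0.09 at 120 and 144 h. With the replicate number as a block, 6 members passed at 48 h against 41.1% of all genes, and 5 at 144 h against 70.6%.

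**Figure D2:**
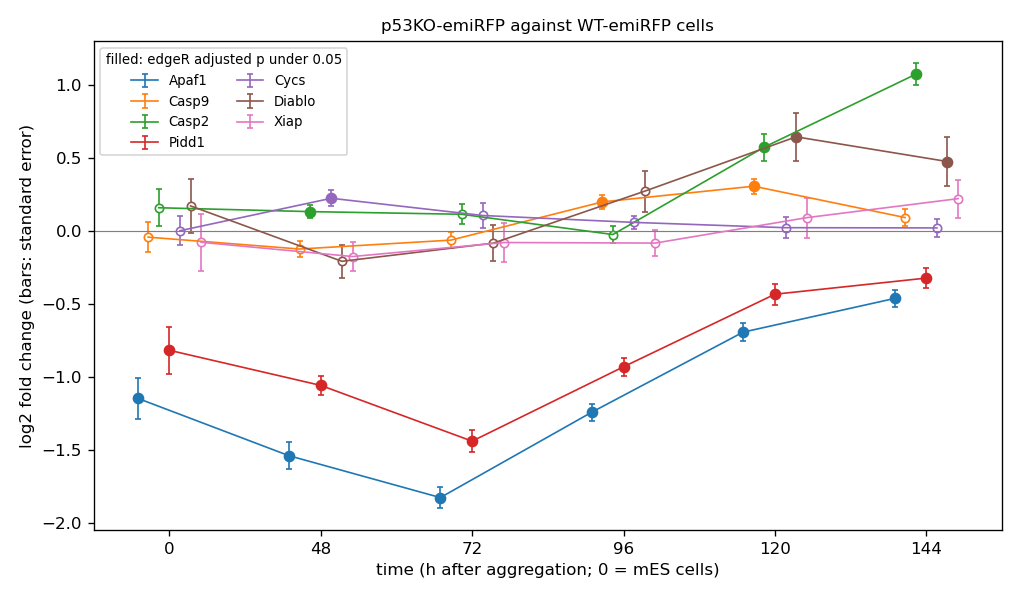
Log2 fold change of p53KO–emiRFP against WT–emiRFP cells (vertical axis) at 0 to 144 h for the 7 genes, with bars of 1 standard error; filled points passed an edgeR adjusted p of 0.05. Apaf1 reaches -1.82 and Pidd1 -1.44 at 72 h, and both lie nearer 0 later, and Casp2 reaches 1.07 at 144 h.

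Apaf1, the scaffold of the apoptosome, had 987, 1073 and 1259 normalized counts in the p53KO–emiRFP mES libraries and 2084, 2472 and 2777 in the WT–emiRFP ones. The difference was -1.14 ± 0.14 (SE) on the log2 scale, with an edgeR adjusted p of 0.0003, and -1.25 without the WT–emiRFP library of replicate 1. By 72 h it had 1581, 1558 and 1669 counts in p53KO–emiRFP cells against 5264, 5444 and 6306 in WT–emiRFP cells. That was 28.3% of the WT–emiRFP level, a log2 fold change of -1.82 ± 0.07 with an adjusted p of 4.8e-11. At 144 h the p53KO–emiRFP libraries had 2953, 2928 and 2926 counts and the WT–emiRFP libraries 3893, 3980 and 4249, which was 72.7% (log2 fold change -0.46 ± 0.06, adjusted p 5.12e-06). In between, the log2 fold change was -1.54 at 48 h, -1.24 at 96 h and -0.69 at 120 h. At each time point every p53KO–emiRFP library lay below all 9 WT libraries, or all 6 at 0 h.

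Casp9, the initiator caspase that the apoptosome activates, did not follow Apaf1. In p53KO–emiRFP cells at 120 h it had 2687, 2775 and 2751 counts, and in WT–emiRFP cells 2177, 2185 and 2276. It was thus higher by 0.31 ± 0.05 on the log2 scale (adjusted p 0.000154), and the p53KO–emiRFP libraries lay above all 9 WT libraries. At 96 h the difference was 0.20 ± 0.05 (adjusted p 0.00821), a call lost without any 1 of the 3 replicates, when the adjusted p reached up to 0.0656. The log2 fold change was between -0.12 and 0.09 at 0, 48, 72 and 144 h and did not pass. The value at 48 h, -0.12, had an adjusted p of 0.118, and of 0.0183 with the replicate block.

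Cycs, which encodes somatic cytochrome c, differed in 1 comparison of p53KO–emiRFP with WT–emiRFP cells. At 48 h it had 8004, 8133 and 8637 counts against 7338, 6591 and 7276, and the groups did not overlap. The log2 fold change was 0.22 ± 0.05 with an adjusted p of 0.00773. Elsewhere it lay between 0.00 and 0.11, with adjusted p values of 0.38 or more. WT–mCherry cells of WT + WT gastruloids had 8700, 8434 and 8700 counts at 48 h, so the p53KO–emiRFP level was within the range of the WT libraries. The mouse genome also holds processed copies of Cycs and the testis paralog Cyct, and reads shared with them would be missing from a count of unique alignments. The rows of Cycs-ps2 and Cycs-ps3 reached at most 2.30 normalized counts, and that of Cyct at most 354 in WT and 273 in p53KO–emiRFP libraries. Shared reads would be missing from these rows too, so they cannot show how many were lost.

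Pidd1, the sensor of the PIDDosome, was the other gene with a lower level throughout. In mES cells p53KO–emiRFP libraries had 1472, 1261 and 1292 counts and WT–emiRFP libraries 2546, 2310 and 2227, a log2 fold change of -0.82 ± 0.16 (adjusted p 0.00828), or -0.76 without the WT–emiRFP library of replicate 1. This call was lost without replicate 2, at an adjusted p of 0.148. It had 1871, 1820 and 1727 counts at 72 h against 5148, 4889 and 4642. The p53KO–emiRFP level was 36.9% of that of WT–emiRFP cells (log2 fold change -1.44 ± 0.07, adjusted p 1.57e-09). At 144 h the levels were 1867, 1803 and 1657 against 2378, 2220 and 2061, and the log2 fold change was -0.32 ± 0.07 (adjusted p 0.000676). Values between were -1.06 at 48 h, -0.93 at 96 h and -0.43 at 120 h, and at all 6 time points the p53KO–emiRFP libraries lay below all WT libraries.

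Casp2, the caspase of the PIDDosome, changed in the opposite direction and later. At 96 h p53KO–emiRFP and WT–emiRFP libraries overlapped, with 4197, 4146 and 4166 counts against 4123, 4085 and 4508. By 120 h the p53KO–emiRFP libraries had 5412, 5143 and 4988 counts against 3819, 3027 and 3587 (log2 fold change 0.58 ± 0.09, adjusted p 0.000138). The gap widened to 5595, 5051 and 5107 against 2657, 2367 and 2462 at 144 h. There the log2 fold change was 1.07 ± 0.07, or 2.10-fold, with an adjusted p of 2.48e-08. WT–mCherry libraries of WT + WT gastruloids, with 3458, 2998 and 3525 counts at 144 h, also lay above the WT–emiRFP libraries. At 120 and 144 h the p53KO–emiRFP libraries lay above all 9 WT libraries. A smaller difference at 48 h, 0.13 ± 0.05, had an adjusted p of 0.046 and was lost without any 1 of the 3 replicates.

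The summed RNA of cell type markers also differed between p53KO–emiRFP and WT–emiRFP cells. All 5 paraxial mesoderm markers (Tbx6, Msgn1, Meox1, Hes7 and Dll1) stood above the WT–emiRFP level in p53KO–emiRFP cells at 120 and 144 h. Their summed level ranged from 45997 to 56964 against 11489 to 15536 normalized counts at 120 h, and from 22904 to 29620 against 3394 to 4720 at 144 h. All 5 naive pluripotency markers (Klf4, Esrrb, Nanog, Zfp42 and Tfcp2l1) were lower, with a summed level of 11120 to 16947 against 69175 to 81302 at 144 h. The haematoendothelial sum (Kdr, Cdh5, Pecam1, Etv2 and Tal1) was lower as well, at 817 to 1139 against 5352 to 5518 at 120 h, with 5 of 5 genes lower, and at 1694 to 2153 against 7194 to 7224 at 144 h, with 4 of 5. Higher sums were those of the primitive streak markers (T, Mixl1 and Eomes) at 120 h, 10766 to 12694 against 2410 to 2769 with 2 of 3 genes higher, and of the neural markers (Sox1, Pax6, Sox3 and Olig2) at 144 h, 5048 to 6836 against 2039 to 2684 with 3 of 4 higher. At 96 h all 5 paraxial mesoderm markers were lower, with a sum of 24096 to 32925 against 38647 to 49940, and all 5 naive markers were lower too. At that time 2 of 3 primitive streak, 3 of 4 neural and 3 of 4 formative markers were higher. At 72 h, where the Apaf1 and Pidd1 differences were largest, all 4 formative pluripotency markers (Fgf5, Otx2, Dnmt3b and Pou3f1) were higher, at 56046 to 63075 against 35636 to 45150, and the naive markers were lower, at 19033 to 19671 against 22227 to 24625. At 48 h all 4 neural markers were higher, at 2655 to 3063 against 2244 to 2483, and in mES cells all 5 naive markers were lower, at 151264 to 157156 against 176710 to 187447. By group means, all 3 endoderm markers (Sox17, Foxa2 and Cldn6) were lower in p53KO–emiRFP cells at 120 and 144 h. All 4 formative markers were lower at 144 h, and all 4 neural markers were higher at 72 h. In mES cells all 5 paraxial mesoderm and all 4 formative markers were higher. None of the markers whose sums are given here was at 0 in any group. The part of the markers in the differences of the members was not tested.

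Diablo, which encodes the XIAP antagonist SMAC, had 261, 262 and 277 counts in p53KO–emiRFP cells at 120 h and 190, 148 and 173 in WT–emiRFP cells. The log2 fold change was 0.65 ± 0.16 with an adjusted p of 0.00437, and every p53KO–emiRFP library was above all WT libraries. At 144 h, with 260, 240 and 240 against 168, 163 and 200 counts, it was 0.48 ± 0.17 (adjusted p 0.022). That call was lost without replicate 1 or replicate 2, at an adjusted p of up to 0.151. These values describe the reads that the table assigned to Diablo, whose exons overlap those of B3gnt4 and Gm49027.

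Xiap, the caspase inhibitor, passed in no comparison of populations within a time point in the fits of all libraries without a block. The log2 fold change of p53KO–emiRFP against WT–emiRFP cells lay between -0.17 at 48 h and 0.22 at 144 h. Its libraries differed by replicate number: replicate 3 was the highest of the 3 in 22 of the 23 conditions. At 48 h the p53KO–emiRFP libraries had 3212, 3435 and 3847 counts against 3644, 3691 and 4510. Without the WT–emiRFP mES library of replicate 1, which had 2342 counts beside 4072 and 5075, the 0 h value was -0.33 (adjusted p 0.0492), against -0.08 with it. With the replicate block the adjusted p was 6.98e-05 at 48 h, against 0.222 without it. For the 144 h difference it was 0.0081 against 0.149. Replicate 3 was also the highest in 18 of 23 conditions for Apaf1 and in 14 for Diablo, and replicate 2 in 13 for Casp9.

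The balance of sensor to caspase was read within each library, where the library's scaling cancels. Counts of Apaf1 over Casp9, each per kilobase of exon, were 0.423 ± 0.012 (SD, n = 3) in p53KO–emiRFP cells at 72 h and 1.44 ± 0.15 in WT–emiRFP cells. At 144 h they were 0.669 ± 0.010 and 0.983 ± 0.065. The ratio in p53KO–emiRFP libraries stayed under that of every WT library at each time point. Pidd1 over Casp2 was 0.928 ± 0.059 in p53KO–emiRFP cells at 72 h and 2.74 ± 0.37 in WT–emiRFP cells. By 144 h it was 0.527 ± 0.026 and 1.39 ± 0.08. These ratios are descriptions with no test.

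**Figure D3:**
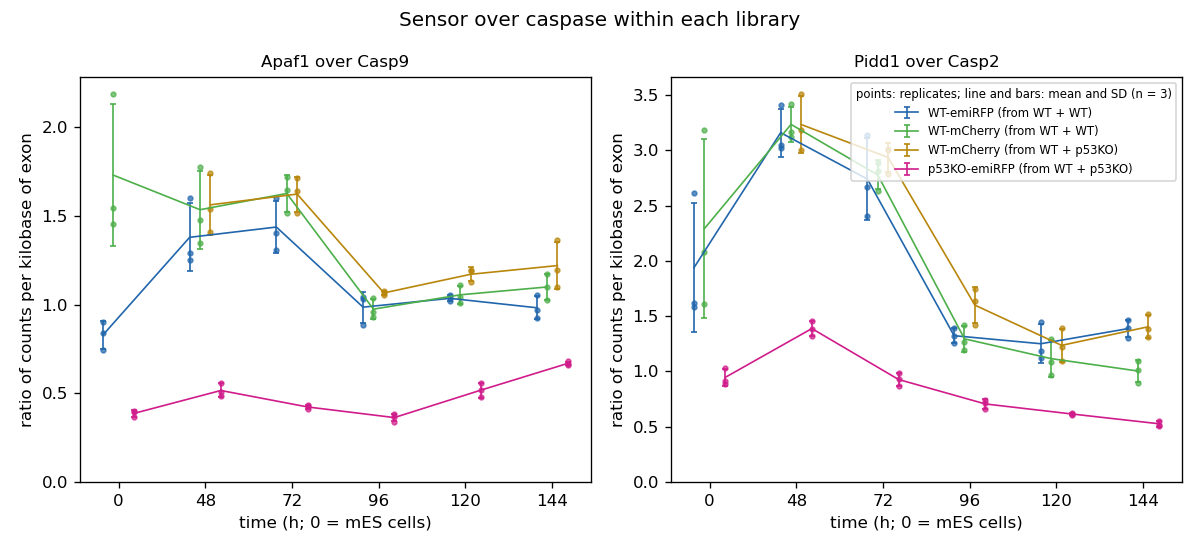
Ratio of Apaf1 to Casp9 and of Pidd1 to Casp2, each in counts per kilobase of exon within a library (vertical axes, from 0), against time in h; points are libraries, lines and bars the mean and SD of 3 replicates, and colours the populations. The p53KO–emiRFP libraries lie lowest at every time point in both panels, at 0.423 for Apaf1 over Casp9 and 0.928 for Pidd1 over Casp2 at 72 h.

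Changes of WT cells over time were read from the mean of the WT populations, each with equal weight. That mean covers both WT clones, and from 48 h on also the WT–mCherry cells beside p53KO cells. It rose for both sensors on leaving the mES state. Pidd1 then fell in each of the 3 steps from 72 h on, to 2262 counts at 144 h. Apaf1 rose again to 5656 counts at 72 h, fell once, and did not pass after 96 h (-0.05 and 0.04). It stood at 4136 counts at 144 h, above its mES mean of 2829. From 0 to 48 h, 5 of 7 members changed, all upward (70.3% of all genes tested changed), led by Pidd1 from a mean of 2776 to 5196 counts, 0.92 ± 0.06 on the log2 scale (adjusted p 2.39e-19), and Apaf1 by 0.61 ± 0.06. From 48 to 72 h Apaf1, Casp9, Casp2 and Cycs rose, 4 of 7 against 66.8% of all genes, and the rise of Casp2, 0.15, was lost without replicate 2 or 3, at an adjusted p of up to 0.0709. Between 72 and 96 h 6 of 7 changed (58.7% of all genes): Apaf1 by -0.45, Pidd1 by -0.49 and Cycs by -0.31, while Casp2 rose by 0.52, Xiap by 0.39 and Casp9 by 0.18. Later steps were falls, of Casp9, Pidd1 and Cycs from 96 to 120 h (3 of 7, against 56.9%) and of Casp2, Pidd1 and Cycs from 120 to 144 h (3 of 7, against 55.5%). Cycs thus fell in 3 consecutive steps, from 8880 counts at 72 h to 4833 at 144 h.

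p53KO–emiRFP cells also gained Pidd1 and Apaf1 on leaving the mES state. From 0 to 48 h 4 of 7 rose (59.5% of all genes changed), Pidd1 by 0.87 ± 0.10 (adjusted p 3.5e-11), Apaf1 by 0.45 ± 0.09, Cycs by 0.45 and Casp2 by 0.32. At 48 to 72 h Casp9 rose by 0.37 and Pidd1 fell by 0.44 on the log2 scale (2 of 7, against 46.4%). From 72 to 96 h 5 of 7 changed against 44.6%: Casp9, Casp2, Diablo and Xiap rose and Cycs fell, of which Xiap was lost without replicate 1 or 2. In the next step, Apaf1 rose by 0.47 ± 0.09 and Casp2 by 0.31, and Cycs fell (3 of 7, against 35.0%). Apaf1 rose once more, by 0.25 ± 0.09 (adjusted p 0.0325), from 120 to 144 h, where Cycs fell (2 of 7, against 22.7%). That last rise of Apaf1 was lost without replicate 1 or 2, at an adjusted p of up to 0.356, and the fall of Cycs without replicate 1 or 3, at up to 0.186.

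The difference between the changes of p53KO–emiRFP and WT–emiRFP cells was tested directly. No member passed from 0 to 48 h (5.99% of all genes did) or from 48 to 72 h (1.76%), where 2 and 0 of the other pathway genes passed. From 72 to 96 h Apaf1, Casp9 and Pidd1 did, 3 of 7 against 11.0%. Apaf1, Casp2 and Pidd1 passed from 96 to 120 h, 3 of 7 against 30.8%, and Casp9 and Casp2 from 120 to 144 h, 2 of 7 against 16.9%. Over the whole interval from 48 to 144 h, chosen after seeing the data, it was 5 of 7 against 50.2%. There the change of Apaf1 was 0.96 for p53KO–emiRFP against -0.12 for WT–emiRFP cells, a difference of 1.08 ± 0.13 (adjusted p 2.15e-10). Casp2 changed by 0.93 and -0.01, a difference of 0.94 ± 0.12 (adjusted p 2.95e-09). Pidd1 was lower at 144 than at 48 h in both, by -0.47 and -1.20, a difference of 0.73 ± 0.14 (adjusted p 7.96e-06). From 72 h, where both gaps were widest, the steps of the populations differed. In the step to 96 h Apaf1 changed by 0.15 for p53KO–emiRFP, which did not pass, against -0.44 for WT–emiRFP cells, and in the step to 120 h by 0.47 against -0.08. Pidd1 changed by 0.07 against -0.44 and then by 0.12 against -0.38 in these steps, and neither value of p53KO–emiRFP cells passed.

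Whether p53KO neighbours altered these genes in WT cells was asked by comparing WT–mCherry cells of WT + p53KO with those of WT + WT gastruloids. Fewer neighbours, and fewer cells in all, were seeded for WT + p53KO gastruloids. The genotype of the neighbours thus cannot be told apart from their number or from the total of cells seeded. Differences were small, at most 0.33 on the log2 scale in any member. No member passed at 48 h (0.0736% of all genes did), 72 h (0.559%) or 120 h (5.94%), 1 did at 96 h (3.92%) and 3 at 144 h (25.6%). Cycs was lower at 96 h, with 6710, 6788 and 7091 counts against 7850, 7936 and 7590, by -0.18 ± 0.04 (adjusted p 0.0386), and lower at 144 h, with 4480, 3948 and 4284 against 5643, 5168 and 5172, by -0.33 ± 0.06 (adjusted p 0.00159). The call at 96 h was lost without replicate 1 or 2, at an adjusted p of up to 0.416.

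At 144 h Casp2 had 2731, 2519 and 2873 counts beside p53KO cells and 3458, 2998 and 3525 beside WT cells, a log2 fold change of -0.30 ± 0.07 (adjusted p 0.0107) that was lost without replicate 1 or 3. Pidd1 had 2432, 2453 and 2413 against 2257, 2112 and 2031 and was higher by 0.19 ± 0.07 (adjusted p 0.0486), a call lost without any 1 of the replicates. Apaf1 had 4090, 4622 and 4412 counts against 3884, 3952 and 4144, groups that overlapped. Its log2 fold change was between 0.00 and 0.18 at the 5 time points, with adjusted p values of 0.0929 or more. At 96 h (0.18 ± 0.06, adjusted p 0.0929) and 120 h (0.17 ± 0.06, adjusted p 0.122) the groups did not overlap, and the library beside p53KO cells was the higher one in 3 of 3 same-numbered pairs at 72, 96 and 144 h and in 2 of 3 at 48 h, the times at which the numbers pair the samples.

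With the replicate block, Casp2 (0.17), Pidd1 (0.17) and Cycs (-0.11) passed at 48 h, 3 of 7 against 4.94% of all genes. At 96 h Apaf1 (0.18), Casp2 (-0.11) and Pidd1 (0.20) passed beside Cycs, 4 of 7 against 20.8%. At 144 h Apaf1 (0.13) and Xiap (-0.25) were added, 5 of 7 against 37.3%. The sorted WT–mCherry cells of WT + p53KO gastruloids differed in the histone transcripts that mark the H2B–emiRFP transgene (H2bc14, H2bc7 and H2bc21). At 144 h their summed level was 213 to 1336 normalized counts, which overlapped the 55.5 to 249 in those of WT + WT gastruloids, and it was 7865 to 8537 in p53KO–emiRFP cells. It was 197 to 566 against 86.3 to 192 at 96 h and 386 to 746 against 155 to 230 at 120 h. The order was the reverse at 48 h, with 54.1 to 60.7 against 76.3 to 130, and the ranges overlapped at 72 h as well (89.3 to 268 against 99.8 to 204). No gene of the 3 was at 0 in any of these groups.

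Cell type markers also differed by neighbour, both at times when members passed and at times when none did. At 120 h, where no member passed, all 5 paraxial mesoderm and all 3 endoderm markers were higher beside p53KO cells. All 5 naive and all 4 neural markers were lower at 120 h, and likewise at 72 h, where no member passed either. At 144 h all 4 neural markers were lower beside p53KO cells, with a summed level of 2635 to 3510 normalized counts against 4048 to 4556. The 4 formative markers were lower too, at 6827 to 7192 against 8176 to 9783. All 3 endoderm markers (Sox17, Foxa2 and Cldn6) were higher, although their sums overlapped (3208 to 6244 against 2089 to 4146). At 96 h all 5 naive markers were lower, at 20705 to 23008 against 24923 to 30314, and the sum of the primitive streak markers was higher, at 34532 to 38469 against 27890 to 32018. At 48 h the naive markers were likewise lower, at 10114 to 10781 against 13573 to 14026, and all 4 formative markers higher, at 217627 to 225360 against 201448 to 211288. None of the genes whose sums are given here was at 0 at those times. The part of these markers and of the histone transcripts in the neighbour differences was not tested.

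**Figure D4:**
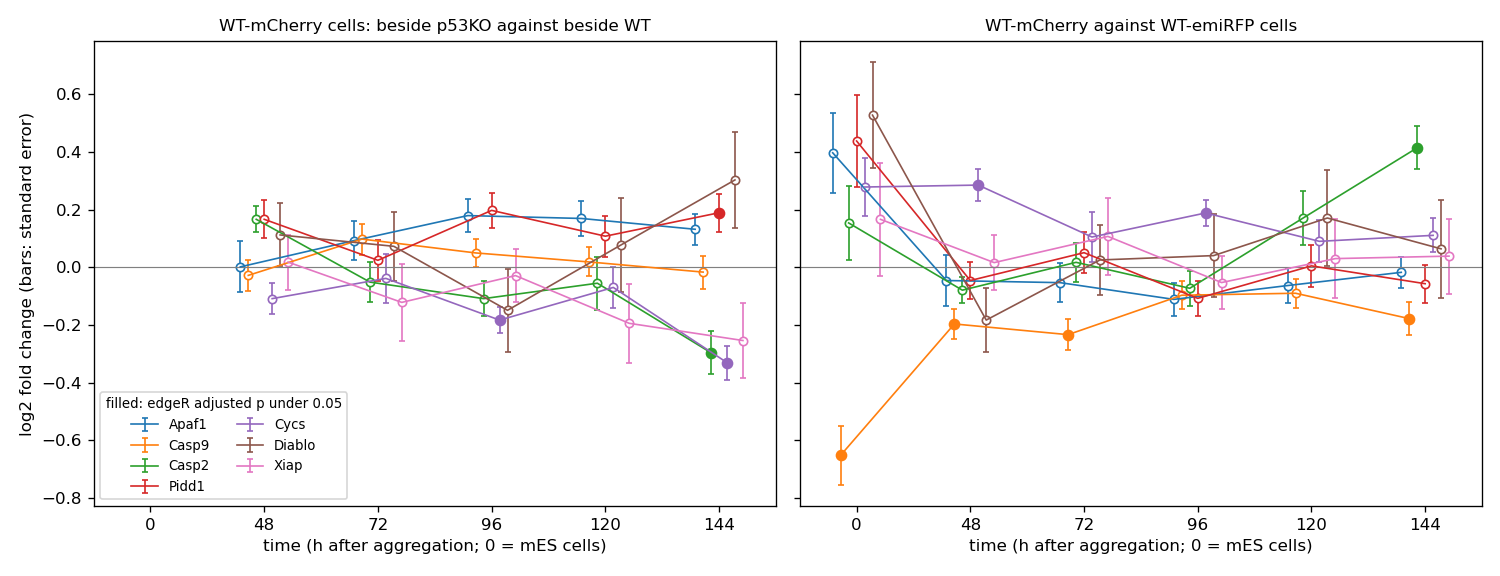
Log2 fold changes (vertical axes, shared) of the 7 genes at each time point, for WT–mCherry cells by neighbour, p53KO against WT (left) and for WT–mCherry against WT–emiRFP cells (right), with bars of 1 standard error; filled points passed an edgeR adjusted p of 0.05. Most points lie near 0, and the farthest is Casp9 of the right panel at 0 h, at -0.65.

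The WT–mCherry and WT–emiRFP clones gave the size of differences without any p53 loss. This comparison shares its WT–emiRFP libraries with that of the p53KO–emiRFP cells and its WT–mCherry libraries with that of the neighbours. Casp9 was the member that differed most often. In mES cells it had 1011, 1114 and 1110 counts in WT–mCherry and 1609, 1693 and 1775 in WT–emiRFP libraries, a log2 fold change of -0.65 ± 0.10 (adjusted p 0.00222). It was the only member of 7 to pass at 0 h (11.1% of all genes did), and its call was lost without replicate 2, at an adjusted p of 0.109. Without the WT–emiRFP library of replicate 1 it was -0.69, and 1 further member passed, Cycs, at 0.38 (adjusted p 0.0103).

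Casp9 was also lower in WT–mCherry cells at 48 h, by -0.20 ± 0.05 (adjusted p 0.031), at 72 h, by -0.23 ± 0.05 (adjusted p 0.016), and at 144 h, by -0.18 ± 0.06 (adjusted p 0.0378). Each of these calls was lost without any 1 of the 3 replicates, but the WT–mCherry libraries lay below the WT–emiRFP libraries at all 6 time points. Cycs was higher in WT–mCherry cells at 48 h, by 0.28 ± 0.05 (adjusted p 0.0037, lost without replicate 1), and at 96 h, by 0.19 ± 0.04 (adjusted p 0.0432, lost without any 1 replicate). At 144 h Casp2 was higher, with 3458, 2998 and 3525 counts against 2657, 2367 and 2462, by 0.41 ± 0.07 (adjusted p 0.00141). At that time the WT–mCherry cells also had a summed paraxial mesoderm marker level of 7262 to 9178 against 3394 to 4720 normalized counts, with 3 of 5 genes higher, and a neural one of 4048 to 4556 against 2039 to 2684, with 4 of 4 higher. All 5 naive pluripotency markers were lower, at 49037 to 54665 against 69175 to 81302. At 48 and 72 h the naive markers were the higher ones in WT–mCherry cells, all 5 of them, at 13573 to 14026 against 9067 to 9760 and at 28599 to 29886 against 22227 to 24625, and at 96 h all 5 were higher with sums that overlapped (24923 to 30314 against 23435 to 26081). In mES cells the neural sum was lower, at 972 to 1123 against 1502 to 1637, with 2 of 4 genes lower. None of these genes was at 0, and the part of the markers in the differences between the clones was not tested. In all, 2 members passed at 48 h (8.90% of all genes), 1 at 72 h (7.64%), 1 at 96 h (2.15%), none at 120 h (1.22%) and 2 at 144 h (23.8%). Apaf1 and Pidd1 did not pass between the clones at any time, with log2 fold changes of 0.40 and 0.44 at 0 h and between -0.11 and 0.05 from 48 h on. In mES cells this depended on the fit. Both were higher in WT–mCherry cells with all 69 libraries in 1 fit (edgeR adjusted p 0.000594 for Apaf1 and 0.000414 for Pidd1) and without the low-count filter (0.0083 and 0.00252), and Pidd1 also with the replicate block (0.029). Without the WT–emiRFP mES library of replicate 1 neither passed, at 0.30 for Apaf1 (edgeR adjusted p 0.148) and 0.50 for Pidd1 (0.063).

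Casp6, an executioner caspase, was lower in p53KO–emiRFP cells at 72 h by -0.52 ± 0.08 (adjusted p 0.000125) and higher at 120 h by 0.32. At 144 h it had 1480, 1402 and 1459 counts against 869, 859 and 848, a log2 fold change of 0.75 ± 0.07 (adjusted p 2.21e-07). Cradd, the adaptor that joins PIDD1 to caspase 2, was lower at 96 h by -0.31 (lost without any 1 replicate), at 120 h by -0.47 ± 0.10 (adjusted p 0.00151) and at 144 h by -0.42 ± 0.08 (adjusted p 0.000497). It also separated the WT clones in mES cells, where it was lower in WT–mCherry cells by -0.93 (adjusted p 0.00105).

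**Figure D5:**
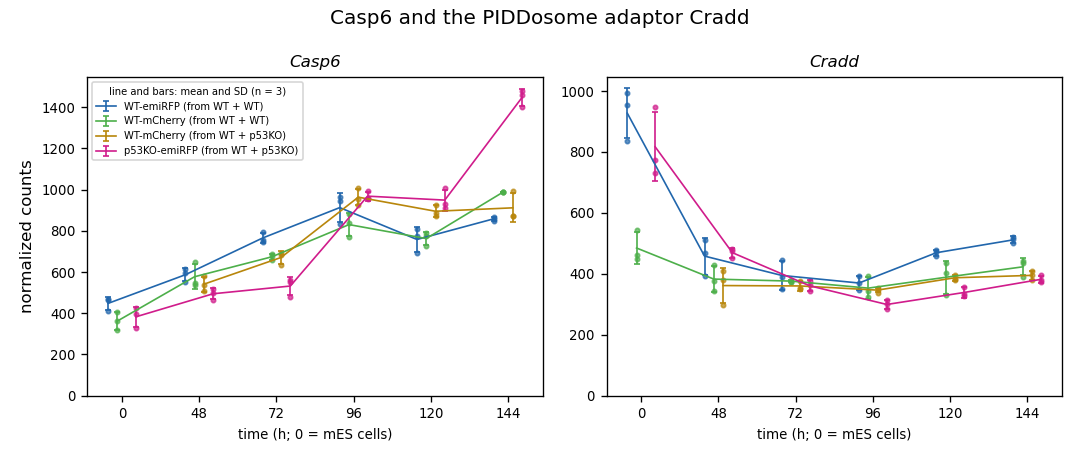
Normalized counts (vertical axes, from 0) of Casp6 and Cradd against time in h, with a point for each library, lines and bars for the mean and SD of 3 replicates, and colours for the populations. Casp6 of p53KO–emiRFP cells lies above every WT library at 144 h, where its libraries had 1402 to 1480 counts.

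Of the 21 other pathway genes, 3 differed between p53KO–emiRFP and WT–emiRFP mES cells, 1 of them higher, against 6.14% of all genes tested. At 48 h 5 of the 20 tested did, with 3 higher (22.1% of all genes), and the 72 h count was 7 of 20, again with 3 higher (29.1%). It was 6 at 96 h, split evenly between the directions (23.3%). The number came to 9 at 120 h, where 6 were higher, against 51.0%, and to 9 once more at 144 h, where 5 were, against 65.4%. As shares of the list, the last pair of counts lay below that of all genes. At 48 h the replicate block raised the count to 12, against 41.1%. In WT–mCherry cells by neighbour none passed at 48 h (0.0736%), 72 h (0.559%) or 120 h (5.94%), the 96 h count was 1 (3.92%) and that of 144 h was 5 (25.6%). With the block, 1 passed at 48 h (4.94%), the 96 h count rose to 7 (20.8%) and that of 144 h to 8 (37.3%). Between the WT clones 2 passed in mES cells (11.1% of all genes) and 2 at 48 h (8.90%). None did at 72 h (7.64%) or 120 h (1.22%), while the 96 h count was 1 (2.15%) and that of 144 h was 4 (23.8%). Where the replicate numbers pair the samples and the block moved these counts by over 1.5 times, they came to 9 at 48 h (28.9%), to 5 at 96 h (15.9%) and to 1 at 120 h (10.8%).

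Only 3 of the 21 passed with a log2 fold change beyond 1 in either direction. Birc3, an inhibitor of apoptosis that acts as a ubiquitin ligase in TNF signalling, had 80.3, 94.0 and 116 counts against 211, 217 and 211 at 120 h (-1.14 ± 0.14, adjusted p 9.51e-06). It was lower by -1.30 ± 0.13 at 144 h (adjusted p 8.02e-07). Xaf1, named for its binding to XIAP, was lower by -1.03 ± 0.12 in mES cells (adjusted p 0.000203), with 272, 311 and 269 counts against 537, 578 and 626. At 144 h it was lower by -1.98 ± 0.25 (adjusted p 7.77e-06), at 10.7 to 15.1 against 42.3 to 57.8 counts. Septin4, whose product ARTS binds XIAP, was higher in p53KO–emiRFP mES cells, with 108, 152 and 193 counts against 50.9, 57.9 and 58.8, by 1.43 ± 0.22 (adjusted p 0.00172), a call lost without replicate 2.

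As a description of likeness, Pearson's r was taken over the 23 group means of log2(normalized count + 1) among 13028 genes; the points share libraries and time points. Apaf1 was most like Rnf169 and Map3k20, both at 0.97. Pidd1 was most like Marchf5 at 0.96 and Unc45b at 0.95, Casp2 like Ubtd2 and Pafah1b2, both at 0.98, and Casp9 like Lman2l at 0.96 and Furin at 0.94. Cycs was most like Mrpl12 and Mrpl16, both at 0.96, which encode proteins of the mitochondrial ribosome. Xiap was most like Epc1 at 0.90 and Rasa1 at 0.89, and Diablo like Cmtr1 at 0.78 and Crtc2 at 0.73. Among the members themselves, r was 0.77 for Apaf1 with Pidd1, 0.76 for Casp9 with Casp2 and 0.72 for Casp2 with Xiap, but 0.08 for Apaf1 with Casp9 and -0.21 for Pidd1 with Casp2, the partners of each platform.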

How the data were processed

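Per the labels and the study's methods, polyA RNA of sorted cells was made into stranded libraries, and the authors trimmed reads with Trim Galore 0.6.7, aligned them to GRCm38.p6 with STAR 2.7.11b and deposited raw counts of uniquely mapped reads per gene; the strand setting of the counting is not given in the sources used here. All 69 count columns were used. The members, lists and named genes were chosen with earlier results of these data known. The genes named are the 7 members, 4 checks of the labels, Casp6, Cradd and any other listed pathway gene past the threshold with an absolute log2 fold change over 1, and for each member the 2 genes of highest Pearson r among those with a mean of at least 50 normalized counts. Some genes of this rule are not reported here. Libraries were scaled by the median of ratios across the 69, and filterByExpr removed low counts. The main test was edgeR's quasi-likelihood test (edgeR 4.0.16, R 4.3.3) with Benjamini-Hochberg adjustment over all tested genes and a threshold of 0.05, by group within a time point (12 libraries, 9 at 0 h), or over all 69 libraries for changes with time. Replicates are those of the labels, and p values measure the spread between these samples. Deviations from group means of same-numbered samples correlated above 0.1 in every pair for p53KO–emiRFP against WT–emiRFP cells at all times, for the neighbour comparison at all times but 120 h, and for the WT clones at all times but 0 and 72 h; there the replicate number pairs the samples. No pair of replicates looked like 1 library deposited again, since at most 11.8% of expressed genes had the same count in a pair. Alternatives were TMM, no filter, the replicate block, other sets of libraries in the fit, DESeq2 1.42.0 and leaving out each replicate. The script was tested on simulated data. Gene positions and overlaps are from Gencode release 21 of the mouse, on GRCm38, and promoter windows from RefSeq, GRCm38.p6, found for all 7 members.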

Additional observations from a re-analysis of the deposited data

Results flagged for a closer look

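The change between time points differed between p53KO–emiRFP and WT–emiRFP cells for the members below, by edgeR's test of the difference itself over all 69 libraries; each value is the log2 change of p53KO–emiRFP cells minus that of WT–emiRFP cells. From 72 to 96 h the difference was 0.58 for Apaf1 (adjusted p 0.000982), 0.51 for Pidd1 (0.00832) and 0.26 for Casp9 (0.0175); none of the 3 passed without replicate 2, when the adjusted p of Apaf1 was 0.0861. From 96 to 120 h it was 0.55 for Apaf1 (0.00046), 0.60 for Casp2 (7.15e-05) and 0.50 for Pidd1 (0.00328), and Pidd1 did not pass without replicate 2 (0.0526). From 120 to 144 h it was 0.50 for Casp2 (0.00183), which did not pass without replicate 3 (0.0538), and -0.21 for Casp9 (0.0439), which did not pass without any 1 of the replicates. Over 48 to 144 h, an interval added after seeing the data, it was 1.08 for Apaf1, 0.94 for Casp2, 0.73 for Pidd1, 0.68 for Diablo (0.00748) and 0.22 for Casp9 (0.0174). There Diablo did not pass without replicate 1 or 2, and Casp9 did not pass without any 1 of the replicates.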

How the results depend on the processing

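Every called member kept its sign under every alternative run. Of 81 called values, 5 were lost under TMM, 7 without the low-count filter, 7 with only the compared libraries in the fit and none under DESeq2, while 17, 21 and 14 were lost without replicate 1, 2 or 3. The replicate block lost none and added 20. In p53KO–emiRFP against WT–emiRFP mES cells, 1 to 2 members passed when a replicate was left out, and 3 without the WT–emiRFP library of replicate 1, against 2. By neighbour at 48 h, 3 passed with the replicate block against 0. At 96 h, where 1 passed, it was 2 under DESeq2, 2 without the filter, 0 with all 69 libraries, 0 with only the compared libraries, 4 with the block and 0 to 1 without a replicate. At 120 h, where the numbers did not pair the samples, 2 passed with the block (Apaf1 and Xiap) against 0, and at 144 h it was 5 with the block and 1 to 2 without a replicate, against 3. Between the WT clones at 0 h, where 1 passed, it was 2 under DESeq2, 5 with all 69 libraries, 4 without the filter, 2 with the block, 2 without the WT–emiRFP library of replicate 1 and 0 to 2 without a replicate. At 48 h, against 2, it was 1 without the filter, 1 with only the compared libraries and 0 to 1 without a replicate. At 72 h, against 1, it was 0 with only the compared libraries and 0 to 0 without a replicate. At 96 h, against 1, it was 0 with all 69 libraries, 0 with only the compared libraries and 0 to 0 without a replicate. At 144 h, against 2, it was 1 under TMM, 1 without the filter, 1 with only the compared libraries and 1 to 1 without a replicate. For the difference in change from 0 to 48 h, against 0, 1 passed under each of DESeq2, TMM, no filter and the block; from 48 to 72 h, against 0, 1 passed without the filter and 1 with only the compared libraries. Without a replicate it was 0 to 3 from 72 to 96 h (3 otherwise), 0 to 1 from 120 to 144 h (2 otherwise, 1 under TMM and 1 without the filter) and 3 to 5 from 48 to 144 h (5 otherwise). In WT cells from 96 to 120 h, 5 passed with the block against 3. In p53KO–emiRFP cells from 120 to 144 h, 1 passed under TMM and 0 to 1 without a replicate, against 2. The causes were not tested. Within time points where the replicate number pairs the samples, the block changed no other call of a member than those given here and beside the results. Across time points the pairing was not checked; there the block also added Xiap in WT cells from 48 to 72 h (5 passed against 4) and in the difference in change from 48 to 144 h (6 against 5), and Cycs in p53KO–emiRFP cells from 48 to 72 h (3 against 2).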
